A study of Homo sapiens with 24 samples.

Results

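The 10 genes described here are markers and regulators of the epithelial-mesenchymal transition (EMT): CDH1, CDH3, EPCAM, ESRP1, CDH2, VIM, SNAI1, SNAI2, TWIST1 and ZEB1. They were taken by symbol from a table of 60617 genes, each symbol matching 1 row of Ensembl identifiers. The cells were 686Tu (MDA686TU), an established human line from a squamous cell carcinoma of the head and neck, and every library came from this 1 line grown in DMEM/F12 with 10% FBS. The 4 groups of 6 RNASeq libraries were the untreated control, EGCG (epigallocatechin gallate, a green tea catechin) at 40 µM, resveratrol (a stilbene found in grapes) at 15 µM, and the combination of both at these doses, each for 24 h. Resveratrol was added from a DMSO stock and EGCG from water. Whether control cells received DMSO was not stated, so resveratrol and its solvent cannot be told apart. Nothing states that the 6 libraries of a group came from separate cultures, so the p-values measure the spread between these libraries, which may be technical.

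Epithelial cells hold to one another through E-cadherin and express splicing factors that keep epithelial isoforms of many transcripts. In EMT, transcription factors of the SNAI, TWIST and ZEB families repress epithelial genes, E-cadherin gives way to N-cadherin, and vimentin filaments appear. Carcinoma cells often occupy states between the extremes, and in squamous carcinomas such mixed states are common.

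The 250 bases before the VIM start site are shown because VIM with resveratrol gave the largest decrease of a member against untreated. They are the RefSeq sequence of GRCh38.p14 at chr10:17227991-17228240, plus strand, with the GC box GGGCGG in capitals.
VIM: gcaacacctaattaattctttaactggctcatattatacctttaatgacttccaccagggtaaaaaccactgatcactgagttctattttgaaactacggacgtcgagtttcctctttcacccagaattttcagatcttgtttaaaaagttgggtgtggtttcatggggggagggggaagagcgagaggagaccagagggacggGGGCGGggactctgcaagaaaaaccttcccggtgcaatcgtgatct
The search covered both strands and found 1 GC box, starting 46 bases before the start site. The same motif occurred in 42.6% of 35116 promoter windows of this length. The E-box CACCTG, the form that SNAI and ZEB proteins are known to bind, was not found in this window on either strand and occurred in 17.5% of the windows.

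The miR-200 family is shown because these microRNAs are known repressors of ZEB1 and ZEB2 mRNA. The mature 3p arms (RefSeq, GRCh38.p14) fall into 2 seed groups, with the seed, bases 2 to 8, in capitals. The first 3 share the seed AAUACUG and the last pair share AACACUG.
hsa-miR-200b-3p: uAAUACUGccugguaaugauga
hsa-miR-200c-3p: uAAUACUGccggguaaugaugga
hsa-miR-429: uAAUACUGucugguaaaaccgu
hsa-miR-200a-3p: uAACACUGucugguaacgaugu
hsa-miR-141-3p: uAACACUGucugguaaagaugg
Mature microRNAs were not measured by these mRNA libraries. The genes of miR-200c and miR-141 lie inside the lncRNA gene MIR200CHG (12:6963226-6964447), whose raw counts were 4 to 17 per library. MIR200CHG did not pass the test in any comparison, and its log2 fold change was 0.36 ± 0.33 (SE) for EGCG, 0.60 ± 0.32 for resveratrol and 0.39 ± 0.34 for the combination.

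CDH1 encodes E-cadherin and lies at 16:68737292-68835537 on the plus strand (GRCh38, GENCODE v44). CDH3, which encodes P-cadherin of basal epithelia, is its neighbour at 16:68636189-68727468, 9823 bases away on the same strand. EPCAM, an epithelial cell adhesion molecule, lies at 2:47345158-47387601, and ESRP1, an epithelial splicing regulator, at 8:94641074-94707466. CDH2 (N-cadherin) lies at 18:27932879-28177946 on the minus strand and VIM (vimentin) at 10:17228241-17237593. The transcription factor genes are SNAI1 (Snail, 20:49982980-49988886), SNAI2 (Slug, 8:48917598-48921740, minus strand), TWIST1 (7:19020991-19117636, minus strand) and ZEB1 (10:31318495-31529814). All 10 are protein coding, and the counts were made per gene.

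Library totals were 7034872 to 11735574 counts. The mitochondrial share of a library was 0.249 to 0.326% for replicates 1 to 3 of the 4 groups but 0.448 to 0.775% for replicates 4 to 6, a division that no label names and that cuts each group into 3 and 3 libraries. The 11 markers listed as squamous, which include the simple-epithelial keratin genes KRT8 and KRT18, were all above 1 FPKM. Their summed level was 6624 to 7000 FPKM in untreated, 6350 to 7135 in EGCG, 5570 to 5875 in resveratrol and 5484 to 6044 in combination libraries. Of these 11, 3 were called higher and 6 lower with resveratrol, beside 28.9% and 28.0% of all tested genes. With scaling by library size alone, which also shifted the calls over all genes, the counts were 4 and 5. Among the 11, DSG3 was higher (log2 0.42 ± 0.04, SE), and KRT17 (-0.41 ± 0.03) and the basal keratin gene KRT5 (-0.29 ± 0.03) were lower. With the combination the counts were 3 and 4, beside 29.9% of all genes in each direction, and 6 and 4 with library size alone. Of 10 fibroblast markers 9 were below 1 FPKM, with THY1 and POSTN at 0 counts in all 24 libraries and COL1A2 and LUM counted in all 24, at up to 33 and 12 counts. The summed fibroblast level, nearly all COL1A1, was 13.1 to 15.8 FPKM in untreated, 10.7 to 13.2 in EGCG, 15.4 to 18.4 in resveratrol and 18.0 to 20.8 in combination libraries. All 8 leukocyte and endothelial markers were below 1 FPKM.

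Levels between genes were compared per length, as the authors' FPKM. The lengths that these values imply were 5176 bases for VIM, 4634 for CDH2 and 1997 for TWIST1, and the order of genes depends on them. Whether they match the transcripts made in these cells was not tested. In untreated cells the order was CDH3 (90.5 ± 2.74 FPKM, SD, n = 6), EPCAM (86.8 ± 2.44), CDH1 (66.9 ± 0.677), SNAI2 (25.7 ± 1.39), ESRP1 (18.6 ± 0.676), VIM (6.41 ± 0.367), TWIST1 (5.13 ± 0.433), CDH2 (4.09 ± 0.248), SNAI1 (0.641 ± 0.198) and ZEB1 (0.0284 ± 0.0245). The epithelial adhesion genes stood above the mesenchymal markers, and SNAI2 was the most abundant of the 4 transcription factors. The ranges of CDH3 and EPCAM overlapped, and those of the other neighbours in the order did not. ZEB2, the paralog of ZEB1, had at most 2 counts in a library, and TWIST2 at most 1.

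The order with EGCG was that of untreated cells, and it changed with resveratrol and with the combination. With resveratrol EPCAM (87.3 ± 2.44 FPKM), CDH3 (86.0 ± 2.20) and CDH1 (81.7 ± 1.58) came first, each overlapping the next. ESRP1 (23.9 ± 0.650) stood above SNAI2 (19.6 ± 1.298) there, and TWIST1 (6.46 ± 0.708) above VIM (4.51 ± 0.377), both without overlap. In mean normalized counts, which use no length, VIM (203.8) stood above TWIST1 (112.5) with resveratrol. In combination libraries CDH1 (90.1 ± 3.04 FPKM), EPCAM (89.8 ± 5.55) and CDH3 (89.4 ± 1.92) overlapped one another, and ESRP1 (25.4 ± 0.878) stood above SNAI2 (18.3 ± 0.932) with no overlap. TWIST1 (7.15 ± 0.277) was above CDH2 (5.02 ± 0.275) and VIM (4.88 ± 0.292), which overlapped. By mean normalized counts TWIST1 (124.6) was below CDH2 (202.9) and VIM (220.2) in these libraries. Within libraries, the ratio of CDH1 to CDH3 in FPKM was 0.739 ± 0.0159 (untreated), 0.783 ± 0.0160 (EGCG), 0.951 ± 0.0340 (resveratrol) and 1.01 ± 0.0349 (combination). The ratio of CDH1 to SNAI2 was 2.61 ± 0.136, 2.95 ± 0.243, 4.19 ± 0.345 and 4.94 ± 0.208 in the same order. These ratios do not depend on the scaling between libraries.

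**Figure D1:**
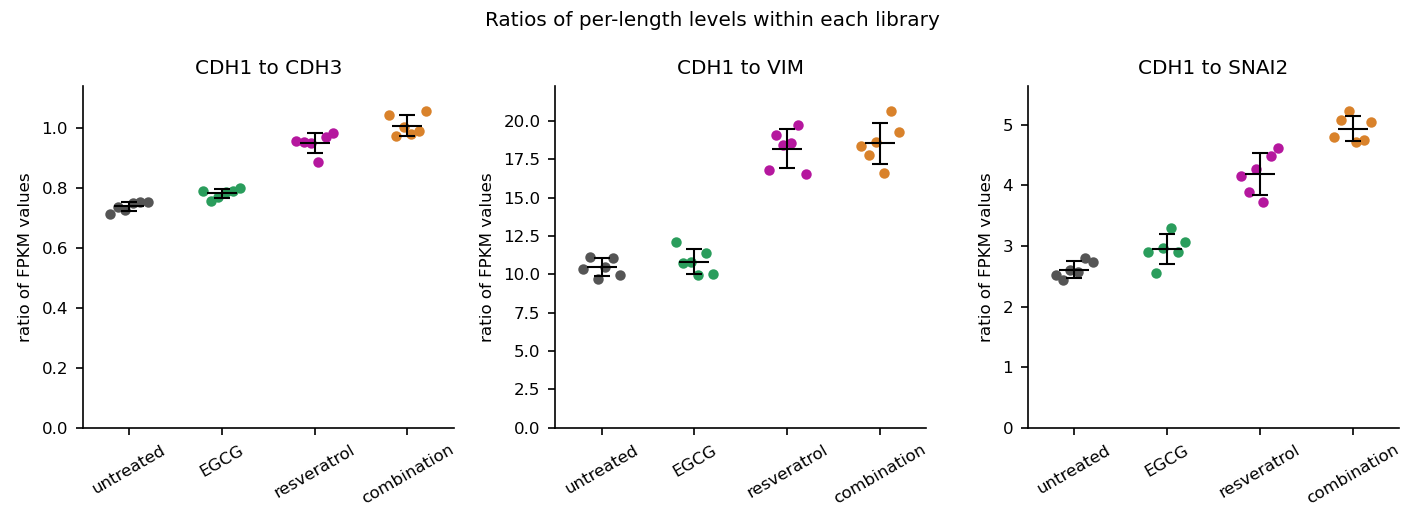
Ratios of FPKM values within each library (vertical axes, no unit) in the 4 groups, as points for 6 libraries a group with the mean and SD. The ratio of CDH1 to VIM was 9.71 to 11.1 in untreated libraries, 9.95 to 12.1 with EGCG, 16.5 to 19.7 with resveratrol and 16.6 to 20.6 with the combination. Libraries with resveratrol, alone or combined, did not overlap those without it.

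Of the 10 genes 9 passed the filter on low counts and were tested. A gene was called where edgeR's quasi-likelihood test over 15476 genes gave p below 0.05 and, after Benjamini-Hochberg adjustment, below 0.1. EGCG against untreated called 2 of the 9, CDH1 and ESRP1, both higher, where 1.76% of all tested genes were called and 0.905% were called higher. Resveratrol called 6, with CDH1, ESRP1 and TWIST1 higher and CDH3, VIM and SNAI2 lower, where 56.9% of all genes were called, 28.9% higher and 28.0% lower. The combination also called 6, with CDH1, ESRP1, TWIST1 and CDH2 higher and VIM and SNAI2 lower, where 59.8% of all genes were called, 29.9% in each direction. The share of the 9 members called by resveratrol and the combination, 66.7% in each, was near these backgrounds. EGCG and untreated libraries did not overlap in normalized counts for 1 member, beside 1.58% of all tested genes. There was no overlap for 4 members in resveratrol libraries (31.0% of all genes) and for 6 in combination libraries (31.9%). The 3 comparisons used the same untreated libraries.

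Directions depend on the scaling for genes with small changes. With scaling by library size alone the median of all genes moved to 0.09 (log2) with resveratrol and 0.08 with the combination, and the calls over all genes went from 4466 higher and 4341 lower to 6147 and 2857 with resveratrol. The members called with resveratrol then split 4 higher and 2 lower in place of 3 and 3. With the combination they split 6 and 2 in place of 4 and 2, and for the combination against EGCG 5 and 2 in place of 4 and 2. The ends of the distribution, CDH1, ESRP1, TWIST1, VIM and SNAI2, kept their directions and calls with resveratrol and with the combination against untreated.

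**Figure D2:**
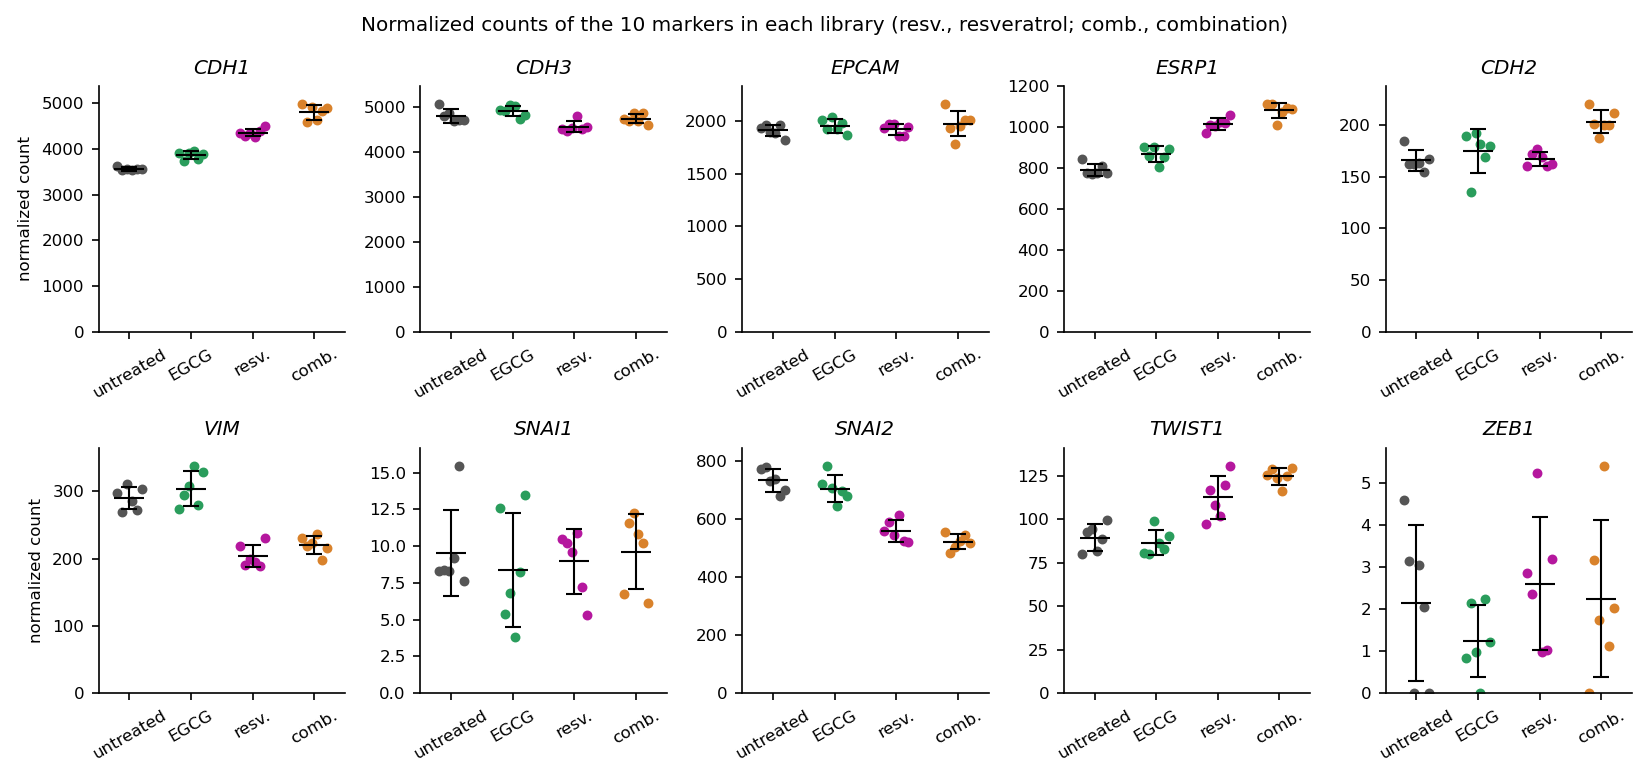
Normalized counts (raw counts divided by the size factor of the library, vertical axes from 0) of the 10 markers in the 4 groups, as points for 6 libraries a group with the mean and SD. CDH1 and ESRP1 were highest and SNAI2 lowest on average with the combination, while SNAI1 and ZEB1 lay at a few counts in every group.

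CDH1 rose with each treatment. Its normalized counts in the 6 untreated libraries were 3633, 3546, 3551, 3530, 3558 and 3553. With EGCG they were 3902, 3735, 3913, 3963, 3767 and 3877, and with resveratrol 4339, 4284, 4342, 4266, 4393 and 4498. With the combination they were 4976, 4577, 4907, 4626, 4825 and 4887. No 2 of the 4 groups overlapped. The increase was 8.46% for EGCG (log2 0.12 ± 0.03, SE, edgeR adjusted p = 0.00955), 22.6% for resveratrol (0.29 ± 0.03, adjusted p = 4.76e-12) and 35.0% for the combination (0.43 ± 0.03, adjusted p = 9.56e-17). In bulk RNA, a change in the number of cells expressing a gene and a change in RNA per cell cannot be told apart. Each of the 3 differences gave p = 0.00216 in the two-sided exact permutation test, the smallest that 6 against 6 libraries allow. In replicates 1 to 3 and 4 to 6 taken alone resveratrol gave a log2 change of 0.28 and 0.31, and the combination one of 0.44 and 0.43. For EGCG it was 0.11 and 0.12, with adjusted p = 0.378 and 0.209.

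ESRP1, whose protein directs epithelial splicing of FGFR2 and CD44, moved in the same direction. Its normalized counts were lowest 770.7, median 776.4 and highest 843.2 untreated, and 803.2, 876.0 and 901.8 with EGCG. With resveratrol they were 973.4, 1015 and 1058, and with the combination 1011, 1090 and 1112. The EGCG libraries overlapped the untreated ones, and the resveratrol and combination libraries lay above both. The log2 change was 0.14 ± 0.04 (SE) for EGCG, 0.36 ± 0.03 for resveratrol and 0.45 ± 0.03 for the combination. The edgeR adjusted p values were 0.0374, 4.01e-11 and 1.15e-13. The EGCG call was lost when EGCG replicate 1, 3 or 6 was left out (adjusted p = 0.135, 0.125 and 0.1003). ESRP2, the paralog of ESRP1, went from 613.4 ± 28.3 normalized counts to 516.9 ± 31.7 with the combination (log2 -0.24 ± 0.05, edgeR adjusted p = 5.70e-05), opposite in direction to ESRP1. It was named after its values were seen.

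CDH3 and EPCAM differed little between groups. CDH3 averaged 4799 ± 145 normalized counts (SD) in untreated, 4911 ± 114 in EGCG, 4561 ± 117 in resveratrol and 4741 ± 102 in combination libraries. The groups overlapped. With resveratrol CDH3 fell by 4.70%, which passed the test (log2 -0.07 ± 0.03, SE, edgeR adjusted p = 0.0248, exact permutation p = 0.0108). This call was lost in replicates 4 to 6 alone (-0.02, adjusted p = 0.642) and without EGCG replicate 1, 4 or 6 (-0.05 in each), and with library size alone the value turned to 0.02. With the combination the value was -0.01 ± 0.03 (95% interval -0.07 to 0.04), and it turned to 0.07 with adjusted p = 0.0198 with library size alone.

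EPCAM averaged 1909 ± 53.7, 1953 ± 64.7, 1920 ± 53.6 and 1973 ± 122 normalized counts in the untreated, EGCG, resveratrol and combination groups. No comparison was called. The 95% interval of the log2 change was -0.03 to 0.10 for EGCG, -0.06 to 0.08 for resveratrol and -0.02 to 0.12 for the combination. Scaling by library size alone called EPCAM higher with resveratrol (0.10, edgeR adjusted p = 0.0142) and the combination (0.13, adjusted p = 0.00148), where the median of all genes moved by 0.09 and 0.08. That scaling also called EPCAM for the combination against EGCG (0.09, edgeR adjusted p = 0.0295). For the combination against untreated, EPCAM was called as well without combination replicate 3 (0.08, adjusted p = 0.0366) and under the stricter filter of 10 counts in each of the libraries (0.08, adjusted p = 0.0588).

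VIM fell with resveratrol and with the combination. Its normalized counts were lowest 269.9, median 291.6 and highest 310.1 untreated, and 273.5, 300.9 and 338.0 with EGCG. Resveratrol libraries held 188.9, 197.4 and 230.6, and combination libraries 198.3, 220.9 and 236.2. Every library with resveratrol, alone or combined, lay below every library without it. VIM fell by 29.7% with resveratrol (log2 -0.51 ± 0.06, SE, edgeR adjusted p = 8.05e-09) and fell by 23.9% with the combination (-0.39 ± 0.06, adjusted p = 1.07e-06). With EGCG alone the value was 0.06 ± 0.06 with adjusted p = 0.821. In replicates 1 to 3 and 4 to 6 the resveratrol value was -0.53 and -0.49.

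CDH2, the marker that replaces CDH1 in the textbook cadherin switch, did not fall together with VIM. Its normalized counts in the 6 untreated libraries were 184.3, 161.7, 162.4, 163.2, 154.6 and 167.1. They were 189.3, 134.6, 192.2, 181.2, 169.2 and 179.7 with EGCG, and 160.5, 171.9, 176.3, 169.1, 160.0 and 162.6 with resveratrol. With the combination they were 219.9, 200.4, 187.6, 199.3, 199.4 and 211.0, above every untreated and every resveratrol library, while the EGCG libraries overlapped them. CDH2 rose with the combination by 22.4% (log2 0.29 ± 0.07, SE, edgeR adjusted p = 0.000338). With EGCG alone the value was 0.08 ± 0.07 (adjusted p = 0.780) and with resveratrol alone 0.02 ± 0.07 (adjusted p = 0.872).

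SNAI2 was the transcription factor with the highest level, and it fell. The normalized counts were lowest 681.4, median 735.8 and highest 782.3 untreated, and 645.1, 703.6 and 785.3 with EGCG. With resveratrol they were 522.8, 553.2 and 616.2, and with the combination 484.0, 523.2 and 557.0. The libraries with resveratrol did not overlap those without it. SNAI2 fell by 23.4% with resveratrol (log2 -0.38 ± 0.05, SE, edgeR adjusted p = 8.78e-09) and fell by 28.8% with the combination (-0.49 ± 0.05, adjusted p = 4.30e-11).

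TWIST1 moved the other way. The normalized counts were lowest 80.2, median 90.5 and highest 99.7 untreated, and 79.7, 84.6 and 99.0 with EGCG. Resveratrol libraries held 97.4, 112.6 and 130.7, which overlapped the untreated range, and combination libraries 115.9, 124.9 and 129.5, which did not. TWIST1 rose by 25.8% with resveratrol (log2 0.33 ± 0.08, SE, edgeR adjusted p = 0.000568, exact permutation p = 0.00433) and by 39.5% with the combination (0.48 ± 0.08, adjusted p = 2.72e-06). SNAI2 and TWIST1, the members among the EMT transcription factors with more than a few counts, moved in opposite directions.

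SNAI1 and ZEB1 were at a level where changes of this size were not detectable. SNAI1 had 3 to 15 raw counts per library, and the 95% interval of its log2 change with the combination was -0.50 to 0.57. ZEB1 had 51 counts in all 24 libraries, 0 to 6 per library, and was not tested in edgeR. In the 4 libraries with 0 counts of ZEB1, a count of 0 allows up to 0.309 to 0.426 CPM (3 counts), which covers counting error only. Of 3 genes that overlap ZEB1, 2 gave more counts than ZEB1 itself, with 49.0 normalized counts on average for the pseudogene SPTLC1P1 on the same strand and 9.37 for the antisense gene ZEB1-AS1. The other, an unnamed pseudogene on the opposite strand, averaged 0.148. How reads shared between such genes were assigned was not stated.

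**Figure D3:**
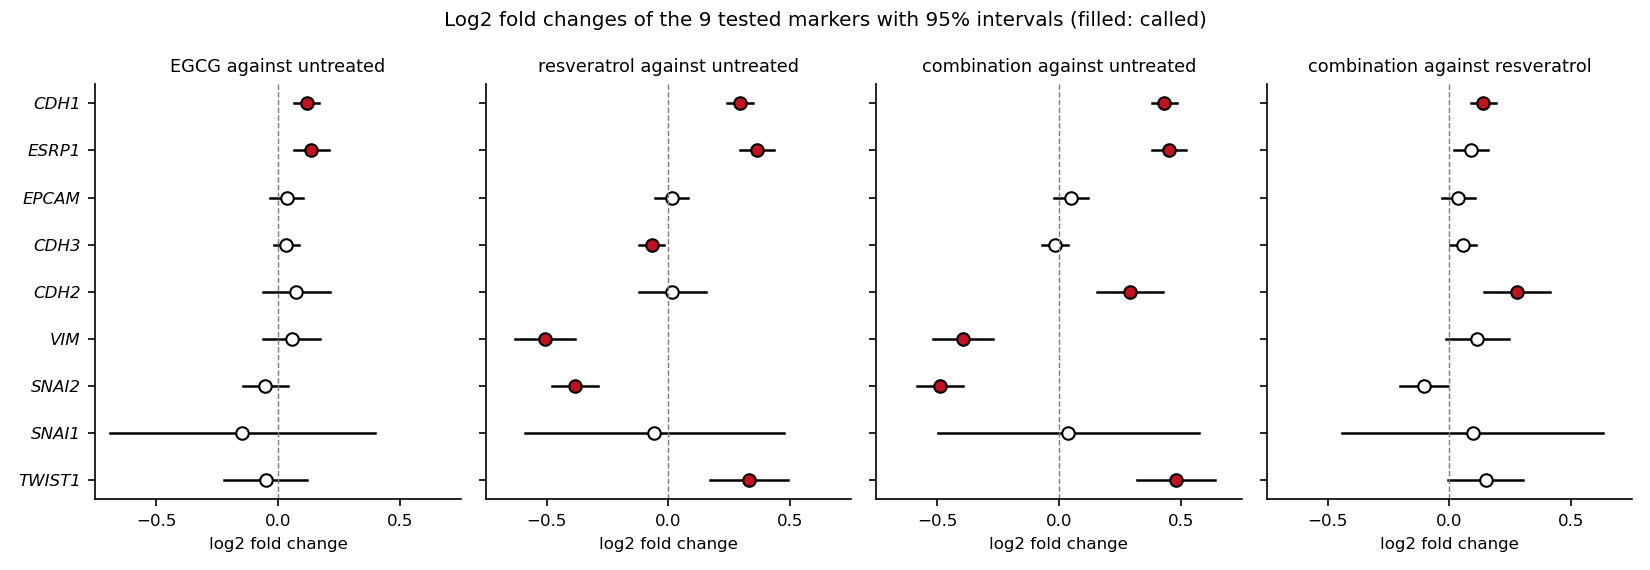
Log2 fold changes (horizontal axes) of the 9 tested markers in 4 comparisons, as points with 95% intervals, filled where the gene was called. With the combination CDH1, ESRP1, CDH2 and TWIST1 lay above 0 and VIM and SNAI2 below, and the interval of SNAI1 spans -0.50 to 0.57.

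The combination was compared with each single agent to see what the second agent added. Against resveratrol alone, 2 of the 9 members were called, both higher, where 7.86% of all genes were called and 4.01% were called higher. CDH1 was higher by 10.2% (log2 0.14 ± 0.03, SE, edgeR adjusted p = 0.000453) and CDH2 by 21.2% (0.28 ± 0.07, adjusted p = 0.00894). Their libraries did not overlap, as was true of 3.20% of all tested genes. Values that did not pass were 0.09 ± 0.03 for ESRP1 (adjusted p = 0.135), 0.15 ± 0.07 for TWIST1 (0.292), -0.10 ± 0.05 for SNAI2 (0.236) and 0.11 ± 0.06 for VIM (0.3596). The CDH2 call was lost in replicates 1 to 3 alone (0.25, adjusted p = 0.236) and held in replicates 4 to 6 (0.31, adjusted p = 0.0618). Against EGCG alone, 6 of the 9 were called, where 57.8% of all genes were called, 28.7% higher and 29.1% lower, with CDH1, ESRP1, CDH2 and TWIST1 higher and VIM and SNAI2 lower. For 5 of the 9 the libraries did not overlap, as for 27.5% of all genes. The values were 0.32 ± 0.03 for CDH1, 0.31 ± 0.03 for ESRP1, 0.22 ± 0.07 for CDH2, 0.53 ± 0.08 for TWIST1, -0.45 ± 0.06 for VIM and -0.44 ± 0.05 for SNAI2. The CDH2 call was lost in replicates 1 to 3 alone (0.22, edgeR adjusted p = 0.121).

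The interaction asks whether both agents together gave another log2 change than the 2 single changes summed. None of the 9 members was called in edgeR, where 0.265% of all genes were called. 1 member, CDH2 (0.20 ± 0.10, SE, edgeR adjusted p = 0.626), had an unadjusted p under 0.05, and DESeq2 called 0. For CDH1 the interaction was 0.02 ± 0.04 (95% interval -0.05 to 0.10) and for VIM 0.06 ± 0.09 (-0.12 to 0.23). A difference from the sum was not shown for any member, and intervals of this width do not show that the changes add up exactly.

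The other genes of the transition were counted in lists that were not picked for how they moved, although earlier results of these data were known. Genes below named without a value, and those of the combination against resveratrol or the interaction, were named after their values were seen. Each count is to be read against the backgrounds of 28.9% higher and 28.0% lower with resveratrol, and 29.9% higher and 29.9% lower with the combination. These shares hold for the main scaling only. With library size alone more of all genes were called higher and fewer lower with resveratrol, as given above. Counts under that scaling are therefore not to be read against these shares. In either direction the share of all genes called was 1.76% for EGCG, 7.86% for the combination against resveratrol and 0.265% for the interaction.

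Junction genes, which encode tight and adherens junction proteins and catenins, were mostly higher. Of 22 tested, 14 rose and 2 fell (CTNNA1 and TJP1) with resveratrol, and 15 rose and 2 fell (CTNNA1 and PATJ) with the combination. The list medians were 0.25 and 0.33 (log2), beside medians of 0.00 over all genes. CLDN1, a claudin of tight junctions, went from 1174 ± 45.9 normalized counts to 2052 ± 103 with resveratrol and 2901 ± 187 with the combination (log2 1.31 ± 0.04, SE, edgeR adjusted p = 1.91e-25). CLDN7 rose by 1.02 ± 0.07 with the combination, CLDN4 by 0.87 ± 0.07 with resveratrol, and TJP3, present at only 5.89 ± 1.22 normalized counts untreated, by 1.64 ± 0.24 with the combination. EGCG called 2 of the 22, CLDN1 (0.28 ± 0.04, adjusted p = 1.71e-05) and NECTIN1 (0.16 ± 0.04, adjusted p = 0.0364). The EGCG and untreated libraries overlapped for NECTIN1 but not for CLDN1. The combination exceeded resveratrol for 3, CLDN1 (0.50 ± 0.04), CLDN7 (0.24 ± 0.06) and F11R (0.17 ± 0.04).

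Epithelial regulators, which include transcription factors and membrane proteases of epithelia, gave 10 higher and 2 lower (GRHL2 and KLF5) of 18 with resveratrol, and 10 higher and 3 lower (GRHL2, KLF5 and ESRP2) with the combination. With library size alone the resveratrol split was 13 and 0. The medians were 0.34 and 0.37. PRSS8 (prostasin, a membrane serine protease) rose by 1.10 ± 0.08 (log2, SE) with resveratrol and 1.26 ± 0.08 with the combination, and GRHL3 (a grainyhead factor of keratinocytes) by 1.09 ± 0.10 and 1.02 ± 0.10. RAB25, an epithelial trafficking GTPase, rose by 0.52 ± 0.06 with resveratrol, and ST14 (matriptase) by 0.56 ± 0.04 with the combination. With EGCG alone 1 was called, OVOL1, which was lower (-0.46 ± 0.12, edgeR adjusted p = 0.0431). It went from 72.5 ± 9.94 to 52.6 ± 10.2 normalized counts, and the libraries overlapped. Of the 18, 1 was called higher and 1 lower with the combination than with resveratrol alone.

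Of 13 other EMT transcription and splicing factors 8 were tested. With resveratrol and with the combination, 1 rose (SOX9) and 4 fell (HMGA2, QKI, TCF3 and TCF4), and with library size alone the split was 2 and 4 in both. HMGA2, a chromatin protein, went from 2338 ± 73.7 normalized counts to 1669 ± 174 with the combination (log2 -0.49 ± 0.05, SE, edgeR adjusted p = 2.55e-11). TCF4 changed by -0.60 ± 0.17 (adjusted p = 0.00315) from 29.3 ± 3.18 normalized counts, and SOX9 by 0.57 ± 0.07 (adjusted p = 8.33e-09). EGCG called 0 of the 8 in edgeR and in DESeq2, and 0 had an unadjusted p under 0.05. The combination against resveratrol also called 0 of the 8.

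Mesenchymal effector genes were mixed. Of 23, 18 were tested, and 6 rose and 9 fell with resveratrol, while 7 rose and 5 fell (AXL, LGALS1, NT5E, TAGLN and TGFBI) with the combination. The medians were 0.02 and -0.03, which turned to 0.06 with the combination under library size alone. The log2 changes of the 18 ran from -0.93 to 0.35 with resveratrol and from -0.86 to 0.74 with the combination. The genes given values for these 2 comparisons had the largest absolute changes and all fell, so they do not stand for the list. TGFBI, a secreted matrix protein, went from 15621 ± 520 normalized counts to 12208 ± 304 under EGCG, to 9890 ± 185 under resveratrol and to 8726 ± 186 under both (log2 -0.84 ± 0.02, SE, edgeR adjusted p = 4.91e-26). LGALS1 (galectin) changed by -0.93 ± 0.06 with resveratrol and -0.86 ± 0.06 with the combination, and NT5E (the ectonucleotidase CD73) by -0.75 ± 0.05 and -0.78 ± 0.05. LOXL2, a lysyl oxidase that crosslinks collagen, was higher with EGCG (0.45 ± 0.09, adjusted p = 0.00477). The combination was called higher than resveratrol alone for 5 of the 18 and lower for 1 (4 and 1 with library size alone). In the interaction, 2 of the 18 were called (0.265% of all genes), FN1 (0.28 ± 0.06, adjusted p = 0.00958) and TGFBI (0.17 ± 0.03, adjusted p = 0.00958). COL1A1, counted among the fibroblast markers, rose from 1182 ± 92.5 to 1650 ± 88.3 normalized counts with the combination and fell to 980.6 ± 85.9 with EGCG, and its interaction was 0.46 ± 0.07 (adjusted p = 0.000787). The summed level of the fibroblast markers is nearly all COL1A1 itself, and the part of other cells in this result was not tested.

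TGF-beta pathway genes, which relay the best known inducer of EMT, were also mixed. Of 20, 19 were tested, and 6 rose and 5 fell with resveratrol (10 and 4 with library size alone), while 9 rose and 5 fell with the combination (9 and 2). The 5 that fell were SMAD2, SMAD3, SMURF2, TGFB2 and TGFBR2 in both. SMAD2, a receptor-activated signal transducer, changed by -0.38 ± 0.07 (log2, SE) with resveratrol, from 308.0 ± 22.2 normalized counts to 236.1 ± 16.7. BAMBI, a decoy receptor of the pathway, rose by 0.55 ± 0.21 with resveratrol and 0.79 ± 0.21 with the combination, and the inhibitory SMAD6 by 0.62 ± 0.19 with resveratrol. LTBP1, which tethers latent TGF-beta, rose by 0.59 ± 0.12 and the co-receptor gene TGFBR3 by 0.44 ± 0.18 (edgeR adjusted p = 0.0462) with the combination. Untreated normalized counts were low, at 17.6 ± 3.65 for BAMBI, 24.3 ± 8.27 for SMAD6, 51.1 ± 8.81 for LTBP1 and 15.5 ± 3.85 for TGFBR3. Except for BAMBI with resveratrol, the libraries of these rises overlapped the untreated ones. With the combination DESeq2 called 11 of the 19, where edgeR called 14. EGCG called 0 of the 19 in edgeR and in DESeq2, and 4 had an unadjusted p under 0.05. Of the 19, 1 was called higher and 1 lower with the combination than with resveratrol alone.

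**Figure D4:**
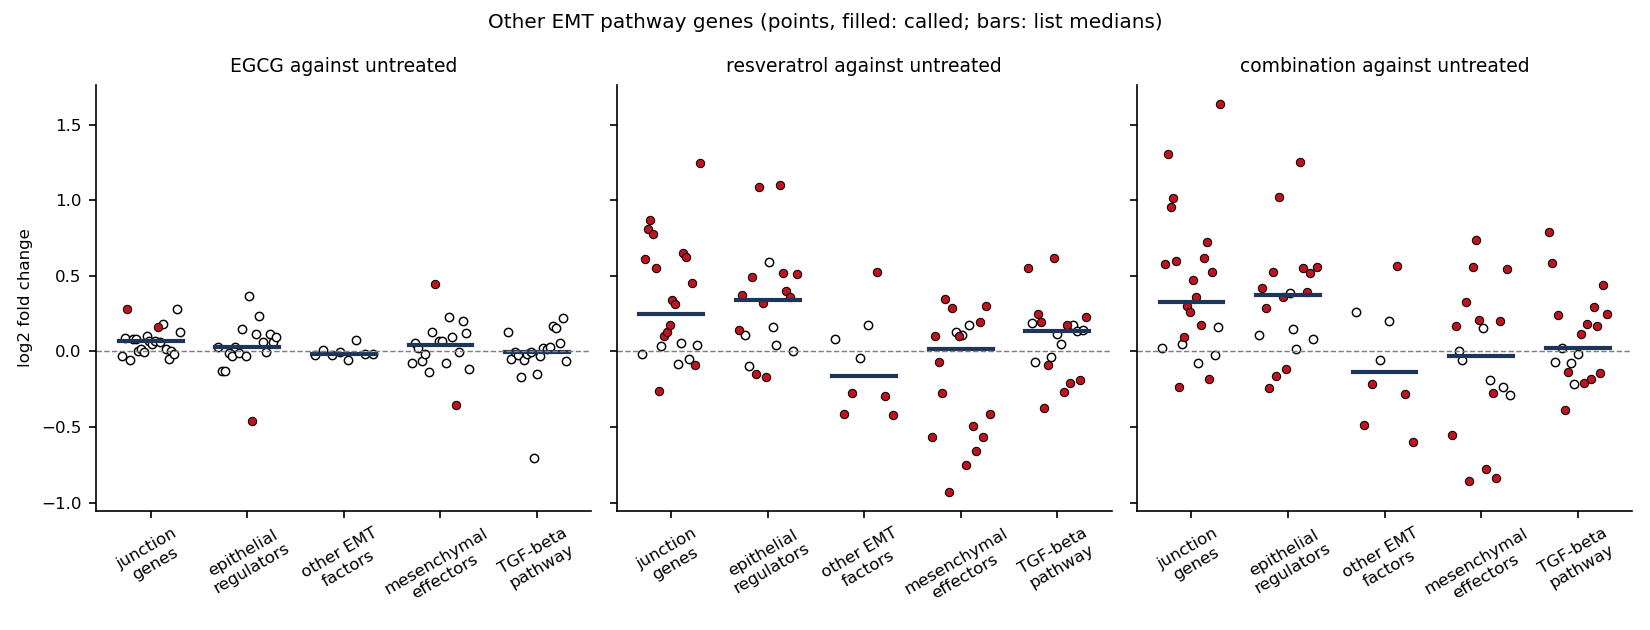
Log2 fold changes (vertical axis) of the tested genes of 5 other EMT lists for EGCG, resveratrol and the combination against untreated, as points filled where called, with the list median as a bar. With resveratrol and the combination the medians were 0.25 and 0.33 for junction genes, 0.34 and 0.37 for epithelial regulators and 0.14 and 0.03 for TGF-beta pathway genes, and every list had called genes on both sides of 0.

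Across the 24 libraries, which share the 4 treatment groups, ESRP1 was the member most like CDH1 in log2 CPM (Pearson r = 0.95) and SNAI2 the least like it (r = -0.92). TWIST1 followed CDH1 (0.86) and opposed SNAI2 (-0.90). The tested genes most like CDH1 were PHLDB2 (0.98), HMGCS1 (0.97) and CLDN1 (0.97), and those most like SNAI2 were HNRNPA1L2, WDR43 and KARS1 (0.95 to 0.96). VIM was most like CAPN2 (0.95), ACTB (0.94) and PKM (0.94), ESRP1 most like ETV5, B4GALNT1 and MTHFD2 (0.96 each), and TWIST1 most like MAP1LC3B2 (0.93). The closest genes were at 0.88 for CDH3 (COLGALT1), 0.83 for CDH2 (SLC16A1-AS1), 0.74 for EPCAM (CD46) and 0.65 for SNAI1 (CES1P1), whose counts were sparse. These values describe the libraries and carry no test.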

How the data were processed

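Total RNA of 686Tu cells was extracted by the authors with RNeasy and made into stranded mRNA libraries (TruSeq), 6 per group. Per the labels and methods, reads were trimmed with Trimmomatic 0.36, aligned to GRCh38 with HISAT2 2.0.4 and handled with SAMtools 1.3.1. The counting program, annotation release and strand setting are not given in the sources used here. The authors deposited raw counts per gene, their normalized counts (a signal, checked to be raw counts divided by a DESeq2 median-of-ratios size factor in 24 of 24 libraries) and FPKM values (made by the authors from those normalized counts, gene length and a common scale).

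From the raw counts, 1 model over the 24 libraries was fitted in R 4.3.3 with edgeR 4.0.16 (TMM, filterByExpr, 15476 genes tested, 1 mean per group, quasi-likelihood test, Benjamini-Hochberg over all tested genes). SE is the log2 fold change divided by the square root of F, and intervals are 95%. The mean log2 CPM of single members was also compared by an exact permutation test, two-sided (prior count 2). Normalized counts give levels between libraries and FPKM levels between genes. DESeq2 1.42.0 and other normalizations, filters, covariates and subsets were alternatives. The fits were also run on simulated data in which few genes changed, in the resveratrol group alone. Such data do not test the scaling where most genes are called, as with resveratrol here. Library totals of 7034872 to 11735574 counts leave genes with few counts imprecise.

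The members and lists were chosen with earlier results of these data known. All 10 members were named, and from each other list at most the 3 called genes with the largest absolute log2 fold change per comparison with untreated. Other genes of the lists that are named were chosen after their values were seen. For each tested member, at most the 3 genes with the highest correlation were named. Gene names and positions came from GENCODE v44, in which 60261 of 60617 identifiers had a symbol.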

Additional observations from a re-analysis of the deposited data

Results flagged for a closer look

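Among 40 sets of a member and a group of 6 libraries, 3 held 1 library far from the rest, at a limit that chance passes in about 1 in 20 groups. CDH1 was 3633 normalized counts in untreated replicate 1, and 3530 to 3558 in the other untreated libraries. CDH3 was 4791 in resveratrol replicate 4, and 4465 to 4546 in the other resveratrol libraries. SNAI1 was 15.5 in untreated replicate 5, and 7.60 to 9.18 in the other untreated libraries, which is a difference of a few raw counts.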

How the results depend on the processing

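Of 575 log2 fold changes of members recomputed under other tests, scalings, filters, thresholds, covariates and subsets, 538 kept their direction and their side of the threshold, as did 1259 of 1296 recomputed without 1 library. The number of called members stayed within 1.5 times of its value except as follows. For EGCG against untreated the 2 called became 1 (ESRP1 lost) with every gene of at least 1 count tested, 0 in replicates 1 to 3 only, 0 in replicates 4 to 6 only, and 1 to 2 without 1 library, the loss being ESRP1 without EGCG replicate 1, 3 or 6. For the combination against resveratrol the 2 became 1 in replicates 1 to 3 only. The subsets hold 3 libraries a group in place of 6. The cause of the other changes was not tested.

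The CDH3 decrease with resveratrol lost its call with every gene of at least 1 count tested (-0.07, edgeR adjusted p = 0.106), with at least 10 counts in every library (-0.04, adjusted p = 0.137) and without EGCG replicate 1, 4 or 6 (-0.05 in each). Values near 0 changed sign. With library size alone CDH3 was 0.018 for resveratrol, 0.068 for the combination and 0.027 for the combination against EGCG, SNAI1 was 0.030 for resveratrol, and EPCAM was -0.011 in the interaction. For the combination, CDH3 was 0.011 with at least 10 counts in every library, 0.0052 with the groups compared alone and 0.0076 in replicates 4 to 6, where SNAI1 was -0.25. In replicates 1 to 3 VIM was -0.0043 and SNAI1 0.044 for EGCG, SNAI1 was 0.28 for resveratrol, EPCAM was -0.0038 for the combination against resveratrol and -0.025 against EGCG, and the interaction was -0.053 for EPCAM and -0.0026 for SNAI1. In replicates 4 to 6 EPCAM was -0.0025 for resveratrol, and the interaction was -0.016 for CDH3 and -0.030 for VIM. The EPCAM interaction was -0.0018 with every gene of at least 1 count and -0.00012 with the 2 sets of replicates as a term.

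Without 1 library at a time, SNAI1 ranged from -0.32 to 0.035 for EGCG, -0.11 to 0.14 for resveratrol, -0.058 to 0.24 for the combination and -0.0040 to 0.20 for the combination against resveratrol. CDH2 ranged from -0.0025 to 0.047 for resveratrol, CDH3 from -0.024 to 0.0030 for the combination, and EPCAM from -0.012 to 0.041 for the combination against EGCG and -0.025 to 0.028 in the interaction. Without combination replicate 3, EPCAM for the combination (0.08, adjusted p = 0.0366) and ESRP1 for the combination against resveratrol (0.11, adjusted p = 0.0566) were called. CDH3 was called lower for the combination against EGCG without EGCG replicate 5 (-0.06, adjusted p = 0.0594) or combination replicate 3 or 5, and by DESeq2 (-0.05, adjusted p = 0.0893).

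The replicate number as a block left the same members called in each comparison (2, 6, 6, 2, 6 and 0) and turned the EPCAM interaction to -0.00034. Over all genes it moved the calls from 273 to 370 for EGCG and from 41 to 85 for the interaction. Deviations of libraries with the same number correlated at -0.01 to 0.13 (median 0.05) over 36 pairs, 2 of them above 0.1, so the numbers were not taken to pair the libraries. Depth limited SNAI1 and ZEB1, at 0 to 15 counts a library.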
